A study of Mus musculus with 2 samples.

Results

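The mitochondrially encoded genes were taken as all genes whose symbol begins with mt- in the deposited gene lists, and 37 of the 55450 listed genes met this rule. They comprise 13 mRNAs (mt-mRNAs), 2 rRNAs (mt-rRNAs) and 22 tRNAs (mt-tRNAs), and all 37 are accounted for below. Their unique molecular identifiers (UMIs, each a tag for 1 captured RNA molecule) were read gene by gene in 1 Control and 1 WMI library of C57BL/6 mouse cerebral cortex, prepared with 10x Genomics droplets. WMI stands for a mouse model of preterm white matter injury, made by ligating the right common carotid artery and exposing the pups to hypoxia. The labels give surgery on postnatal day 7, hypoxia of 1 h, collection on day 14 and an age of 2 weeks for both libraries, take the ligated cortex for WMI and the same side for Control, and carry the ligation text on the Control library too. The study instead describes ligation on day 3, 6% oxygen for 90 min and collection on day 10. It also describes cells freed with trypsin and 4 replicates for each group, whereas the labels speak of nuclei. Its text takes the control cells from a control side of the cortex, and a figure legend speaks of sham hemispheres. No label ties a barcode to an animal. With 1 library per group, condition and library cannot be told apart, no test of the condition was possible, and every interval below is a 95% interval for counting error only.

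Mitochondria keep a small circular genome of their own, which is transcribed within the organelle into long precursors and cut into the separate mRNAs, rRNAs and tRNAs. The mRNAs encode subunits of complexes I, III, IV and V of oxidative phosphorylation, the machinery that passes electrons to oxygen and makes ATP, while the rRNAs and tRNAs serve the mitochondrial ribosome that translates them. All remaining subunits of these complexes are encoded in the nucleus. Because mitochondria lie in the cytoplasm, a preparation of clean nuclei holds few of these transcripts, and the mitochondrial share of UMIs is widely read as a measure of the preparation as well as of the cell.

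Parts of the mitochondrial genome also lie in the nuclear genome as copies, and reads that match both places equally well are commonly dropped by counting software. A search of the members against all other annotated transcripts (GENCODE M21, GRCm38) found 11 genes with at least 95% identity over at least 200 bases, all of them annotated pseudogenes. Of these, 7 lie side by side on the minus strand of chromosome 1, between positions 24611535 and 24616197. *mt-Nd3*, a core subunit of complex I and the mt-mRNA whose ratio between the libraries was highest, matched *Gm28438* over 345 of its 348 bases. They differed at 1 position, T3C, counted from 1 at the first base of *mt-Nd3* with the mitochondrial base first. The start of both genes is shown because it holds that difference, in capitals, in *mt-Nd3* at chrM:9459-9521 (plus strand) and in *Gm28438* at chr1:24613057-24613119 (minus strand).
mt-Nd3: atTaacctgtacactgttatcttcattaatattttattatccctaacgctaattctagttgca
Gm28438: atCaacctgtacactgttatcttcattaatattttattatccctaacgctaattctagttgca
The 3′ end, where droplet libraries place most reads, is shown because both genes are the same there up to the end of the annotated copy. Capitals mark the 3 bases of *mt-Nd3* (chrM:9747-9806, plus strand) beyond that end in *Gm28438* (chr1:24612775-24612831, minus strand).
mt-Nd3 end: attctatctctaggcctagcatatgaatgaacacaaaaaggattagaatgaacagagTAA
Gm28438 end: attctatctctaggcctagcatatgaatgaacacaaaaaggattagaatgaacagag
*mt-Co1*, a catalytic subunit of complex IV, matched *Gm29216* over its last 483 bases with 1 difference, A1066T, near the start of the match. It is shown in capitals in *mt-Co1* at chrM:6390-6453 (plus strand) and in the copy at chr1:24616125-24616188 (minus strand).
mt-Co1: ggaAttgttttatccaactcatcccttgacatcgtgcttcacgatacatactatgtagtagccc
Gm29216: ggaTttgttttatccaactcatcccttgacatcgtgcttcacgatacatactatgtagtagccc

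After barcodes with under 1000 UMIs or 500 genes and predicted doublets were left out, 8763 Control and 7602 WMI cells remained, with 57487783 and 53871437 UMIs and medians of 4334 and 4985.5 UMIs per cell. No cell was left out for its mitochondrial share. The libraries shared 36 barcode sequences, 27 of them among kept cells. Cells were clustered without the mitochondrial genes, and 8 classes were named from marker lists and compared, namely excitatory neuron-like, inhibitory neuron-like, oligodendrocyte precursor (OPC)-like, premyelinating oligodendrocyte (pre-OL)-like, mature oligodendrocyte (mature OL)-like, astrocyte-like, myeloid-like and neuroblast-like cells. Some clusters came almost wholly from 1 library. The unnamed cluster 0 held 2389 Control and 36 WMI cells and entered only the values over all kept cells. Excitatory neuron-like cluster 2 held 1172 Control and 10 WMI cells at a median of 1745.5 UMIs, so this class is also given without it. The myeloid-like cells came mostly from cluster 10 in Control (412 cells, 177 in WMI) and from cluster 5 in WMI (1067 cells, 19 in Control). Cluster 3 (10 Control and 1137 WMI cells) carried myeloid markers but was led by mitochondrial and ribosomal RNAs and stayed unnamed, a naming step that used the members themselves.

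The 37 genes together made up 0.141% of Control UMIs (interval 0.140 to 0.142) and 0.626% of WMI UMIs (interval 0.624 to 0.628), 4.44-fold more. The median cell held 0.0611% in Control and 0.455% in WMI. Cells without any mitochondrial UMI made up 15.7% of Control and 1.18% of WMI cells, and cells above 1% made up 1.99% and 25.7%. Of the 1374 Control cells without one, 927 lay in cluster 0, and without that cluster the shares were 7.01% and 1.18%. The median cell thus differed along with the pooled share. Within the Control library the 1% of cells with the most mitochondrial UMIs held 24.7% of them, against 8.49% in WMI.

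The mitochondrial share was higher in WMI in 8 of 8 classes, by 1.67-fold to 6.34-fold. OPC-like cells held 0.159% in Control and 1.01% in WMI. Pre-OL-like cells held 0.180% and 1.06%. These immature stages of the oligodendrocyte lineage had the highest ratios of pooled shares (log2 2.66 and 2.55). Their counting intervals did not meet those of any other class. By median cell, pre-OL-like cells (0.101% and 0.765%) had a smaller ratio than excitatory neuron-like cells without cluster 2 (0.0416% and 0.373%). Single clusters did not keep the pooled order either. Excitatory neuron-like cluster 26 had a log2 ratio of 3.03 (2.88 to 3.19). Most OPC-like cells lay in cluster 7 (310 Control and 478 WMI cells), which had 2.82 (2.76 to 2.88). The small OPC-like cluster 28 (28 and 43 cells), led by *Top2a* and *Lockd*, had 1.71 (1.58 to 1.84). Neuroblast-like cells had the highest pooled share of the 8 classes in both libraries, at 0.368% and 1.29%. In WMI their median cell, at 0.754%, was below those of OPC-like (0.818%) and pre-OL-like cells (0.765%). This class held 207 WMI cells in the clustering used here, but 123 with coarser clusters, 126 with finer clusters and 132 with doublets kept. With the finer clusters, 71 WMI cells and no Control cells formed a cluster led by *Tspan18*, *Prox1* and *Igfbpl1* that stayed unnamed. Myeloid-like cells (microglia and macrophages) held 0.270% and 0.916%. In cluster 10 alone, which held cells of both libraries in number, the values were 0.264% and 0.762%, so the difference also stood within 1 myeloid cluster. Excitatory neuron-like cells held 0.116% and 0.473%, or 0.0994% and 0.473% without cluster 2, whose Control cells held 0.315%. Inhibitory neuron-like cells held 0.173% and 0.535%. Astrocyte-like cells held 0.205% and 0.376%, the lowest WMI share of the 8 classes, followed by excitatory neuron-like cells. For mature OL-like cells the shares were 0.310% and 0.518%, over only 88 and 48 cells, the lowest ratio of the 8 classes.

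**Figure D1:**
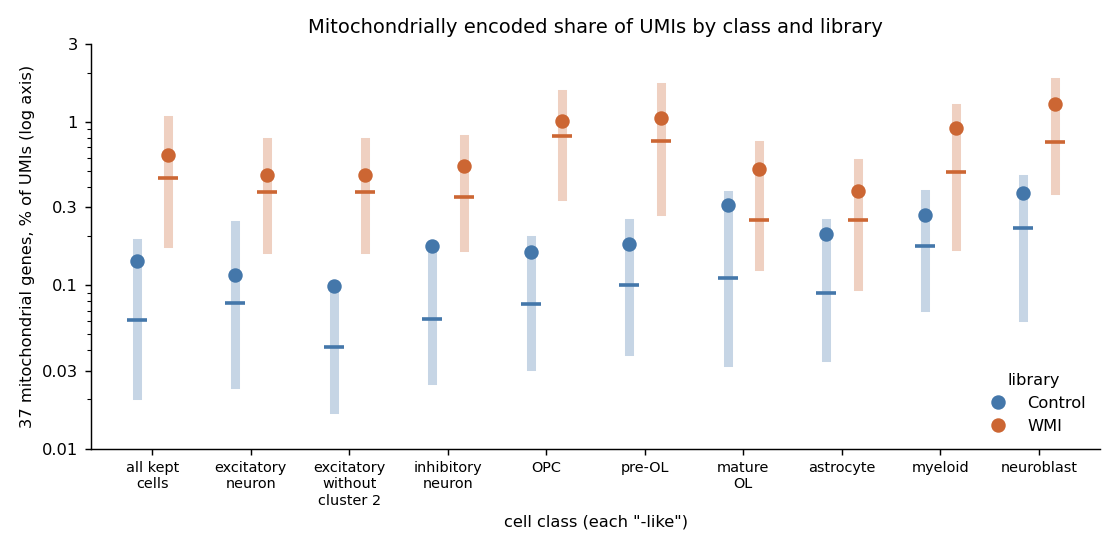
Percent of UMIs from the 37 mitochondrial genes (log axis) for each class (x axis) in the Control (blue) and WMI (orange) libraries. Points are pooled UMIs, short lines the median cell and pale bars the middle 50% of cells; the WMI point is above the Control point in every class, from 0.310% and 0.518% in mature OL-like cells to 0.159% and 1.01% in OPC-like cells.

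Of the 7 complex I mRNAs, *mt-Nd3* was at 30.01 CPM (UMIs scaled to the same total in each library or class) in the Control library and 220.6 CPM in the WMI library, 7.35-fold higher (log2 ratio 2.88, 2.81 to 2.95). In excitatory neuron-like cells its level was 25.9 and 177.7 CPM. In inhibitory neuron-like cells it was 38.4 and 192.7 CPM. In OPC-like cells it was 35.3 and 371.9 CPM. Among neurons and OPC-like cells its Control level thus ran from 25.9 to 38.4 CPM, and of these its WMI level was highest in OPC-like cells. In pre-OL-like cells it was 32.0 and 401.7 CPM. In mature OL-like cells it was 65.0 and 206.8 CPM. In astrocyte-like cells it was 35.8 and 115.1 CPM. The lowest WMI value so far, that of astrocyte-like cells, was above every Control value. In myeloid-like cells it was 42.7 and 301.4 CPM, and in neuroblast-like cells 27.4 and 453.8 CPM, where the Control value rested on 8 UMIs. The log2 ratios ran from 1.67 in mature OL-like cells (1.16 to 2.20) to 4.05 in neuroblast-like cells (3.05 to 5.27), with a median of 2.80 over the 8 classes. The value in mature OL-like cells was 0.78 without barcodes holding an *Xist* UMI and 0.87 with each cell thinned to 1000 UMIs, both below 2-fold.

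The other complex I mRNAs differed less. *mt-Nd1* (238 and 1144 CPM), *mt-Nd2* (168 and 736 CPM) and *mt-Nd4* (193 and 854 CPM), which encode core subunits of the membrane arm, were higher in WMI in 8 of 8 classes with intervals above 0. Their median log2 ratios over classes were 2.04, 1.77 and 1.83. *mt-Nd5*, a further core subunit of that arm, was at 40.2 CPM in Control and 82.0 CPM in WMI, and its median log2 ratio was only 0.37, from -0.13 in astrocyte-like cells (-0.45 to 0.19) to 1.46 in pre-OL-like cells (0.97 to 1.99). It stayed within its counting interval of no difference in astrocyte-like, mature OL-like and neuroblast-like cells. *mt-Nd6*, the 1 mRNA read from the other strand, had few UMIs (185 and 475) and log2 ratios with intervals above 0 in 4 of 8 classes. *mt-Nd4l* had 26 and 24 UMIs in all kept cells, a log2 ratio of -0.02 (-0.89 to 0.84), too few for a statement by class. Its gene overlaps *mt-Nd4* on the same strand, as *mt-Atp8* overlaps *mt-Atp6*, so reads in those stretches may have been counted for either gene or dropped. *mt-Nd5* and *mt-Nd6* overlap on opposite strands, where this applies only if the counting did not keep strands apart.

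*mt-Cytb*, a complex III subunit that carries haem groups, was the most abundant member, with 363 CPM in Control and 1916 CPM in WMI. Its log2 ratio was 2.40 (2.38 to 2.42) in all kept cells and ran from 0.90 in mature OL-like cells to 3.00 in OPC-like cells, with 8 of 8 intervals above 0. Among the complex IV mRNAs, *mt-Co1* was at 64.1 and 224.7 CPM. Its log2 ratio of 1.81 (1.76 to 1.86) in all kept cells was lower than that of *mt-Cytb*, and in mature OL-like cells it was 0.09 (-0.31 to 0.47). *mt-Co2* (51 and 194 UMIs) and *mt-Co3* (114 and 454 UMIs), the other complex IV subunits of the mitochondrial genome, had log2 ratios of 2.02 (1.57 to 2.50) and 2.09 (1.79 to 2.40). Of the complex V subunits, *mt-Atp8* had a log2 ratio of 2.07 (1.95 to 2.19) and *mt-Atp6* one of 1.53 (1.32 to 1.73). Every one of these genes was higher in WMI over all kept cells.

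**Figure D2:**
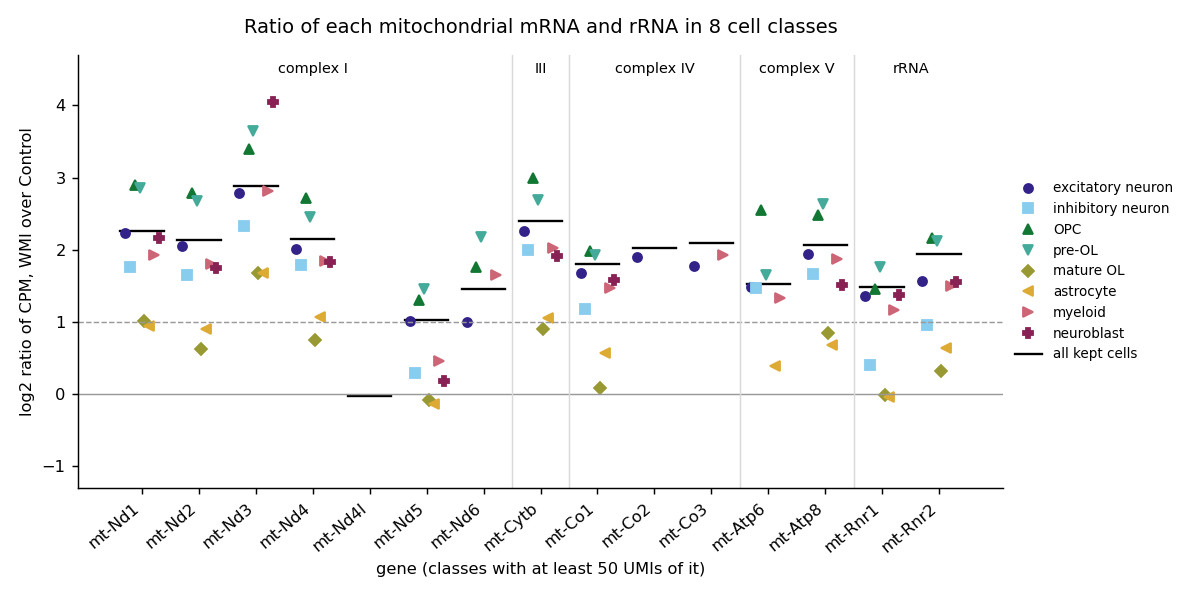
Log2 ratio of CPM, WMI over Control, for each mt-mRNA and mt-rRNA (x axis, grouped by complex) in the 8 classes (coloured symbols, shown where a class held at least 50 UMIs of the gene) and in all kept cells (black lines); the solid grey line marks no difference and the dashed line 2-fold. *mt-Nd3* has the highest symbol of its class in 7 of the 7 classes in which it was ranked and *mt-Nd5* was last in 5 of the 6 in which it was ranked (at least 200 UMIs).

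Counted against all genes, 12 of the 13 mt-mRNAs were at least 2-fold higher in WMI over all kept cells, where 6.87% of the 19912 genes with at least 50 UMIs were. The exception was *mt-Nd4l*. In excitatory neuron-like cells 11 of the 12 with enough UMIs passed that fold (1.85% of all genes), and 12 of 12 without cluster 2 (2.56%). In inhibitory neuron-like cells 8 of 9 passed it (2.20%), in OPC-like cells 10 of 10 (1.79%), in pre-OL-like cells 10 of 10 (2.89%), in myeloid-like cells 10 of 11 (7.94%) and in neuroblast-like cells 7 of 8 (5.58%). Astrocyte-like cells had 3 of 9 (5.86%) and mature OL-like cells 2 of 8 (2.12%), although their medians of 0.90 and 0.79 on the log2 scale were above the medians of all genes, 0.11 and -0.06. No mt-mRNA was 2-fold lower over all kept cells (2.68% of all genes). The minimum of 50 UMIs was taken over both libraries together. Some sparse members met it mainly through the WMI library, where they were higher. Examples are *mt-Nd6* in pre-OL-like cells (5 Control and 57 WMI UMIs) and *mt-Atp6* in OPC-like cells (8 and 64). The counts by class are therefore partly set by that rule, which also held for all genes. The classes share their libraries and are not replicates of one another.

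The mt-rRNAs, structural RNAs of the small (*mt-Rnr1*) and large (*mt-Rnr2*) mitochondrial ribosomal subunits, had, summed, lower ratios than the summed mRNAs in each of the 8 classes, from 0.19 in mature OL-like cells (-0.07 to 0.45) to 1.99 in pre-OL-like cells (1.80 to 2.19) on the log2 scale. Over all kept cells *mt-Rnr1* was at 108 and 303 CPM (log2 ratio 1.49, 1.45 to 1.53) and *mt-Rnr2* at 175 and 670 CPM (1.94, 1.91 to 1.97). Both were at least 2-fold higher in excitatory neuron-like (1.85% of all genes), OPC-like (1.79%), pre-OL-like (2.89%), myeloid-like (7.94%) and neuroblast-like cells (5.58%). Neither was in inhibitory neuron-like cells (2.20%). There *mt-Rnr1* had a log2 ratio of 0.41 (0.25 to 0.56) and *mt-Rnr2* one of 0.96 (0.84 to 1.07). In astrocyte-like cells *mt-Rnr1* had 165 and 160 CPM, a log2 ratio of -0.04 (-0.23 to 0.15), and in mature OL-like cells 169 and 168 CPM, a log2 ratio of -0.01 (-0.44 to 0.41). In those 2 classes the small-subunit rRNA was thus level between the libraries within counting error while the summed mt-mRNAs had log2 ratios of 0.97 (0.92 to 1.02) and 0.81 (0.72 to 0.90).

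The 22 mt-tRNAs, short adaptors that poly(A)-primed libraries capture poorly, were sparse, and 12 of them had at least 50 UMIs over both libraries. Of these, 11 were at least 2-fold higher in WMI over all kept cells (6.87% of all genes). That minimum was reached more easily by mt-tRNAs high in WMI. *mt-Ts2*, a serine tRNA, had 42 Control and 160 WMI UMIs (log2 ratio 2.02, 1.53 to 2.55). *mt-Ta*, for alanine, had 27 and 110 UMIs (2.12, 1.502 to 2.785). *mt-Tv*, for valine, had 39 and 96 UMIs (1.39, 0.84 to 1.97). *mt-Tp*, for proline, had 21 and 112 UMIs and the highest ratio of these 4 (2.51, 1.83 to 3.26). The 1 tRNA with enough UMIs below 2-fold was *mt-Tm*, with 35 and 43 UMIs. The remaining 17 had 2 to 90 UMIs over both libraries, and in neurons, glia and myeloid cells taken class by class no single mt-tRNA reached 50 UMIs outside the excitatory neuron-like cells.

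To separate a shift of all mt-mRNAs from one of single genes, each was set against the other 12 within the same cells, which does not involve the total UMI count. In the Control library there were 2.75 *mt-Nd3* UMIs per 100 UMIs of the other 12, and in the WMI library 4.38, a log2 odds ratio of 0.67 (0.59 to 0.74). The odds ratio of *mt-Nd3* was above 0, interval included, in 8 of 8 classes, from 0.56 in inhibitory neuron-like cells (4.26 against 2.90 per 100) to 2.19 in neuroblast-like cells (4.58 against 1.00 per 100). With each cell thinned to 1000 UMIs it was 0.79 over all kept cells and 1.01 in excitatory neuron-like cells (0.67 unthinned), but 0.19 in OPC-like cells (0.61 unthinned) and -0.08 in mature OL-like cells (0.89 unthinned). *mt-Nd5* went the other way in 8 of 8 classes, with log2 odds ratios from -1.76 to -0.90, and over all kept cells there were 3.73 UMIs per 100 in Control and 1.58 in WMI. *mt-Co1* was below the other genes in 7 of 8 classes by its interval, with a median of -0.56. *mt-Cytb* was above them in 5 of 8 and *mt-Nd1* in 4 of 8, by less than *mt-Nd3*. For the remaining genes the intervals included 0 in at least 5 of 8 classes.

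**Figure D3:**
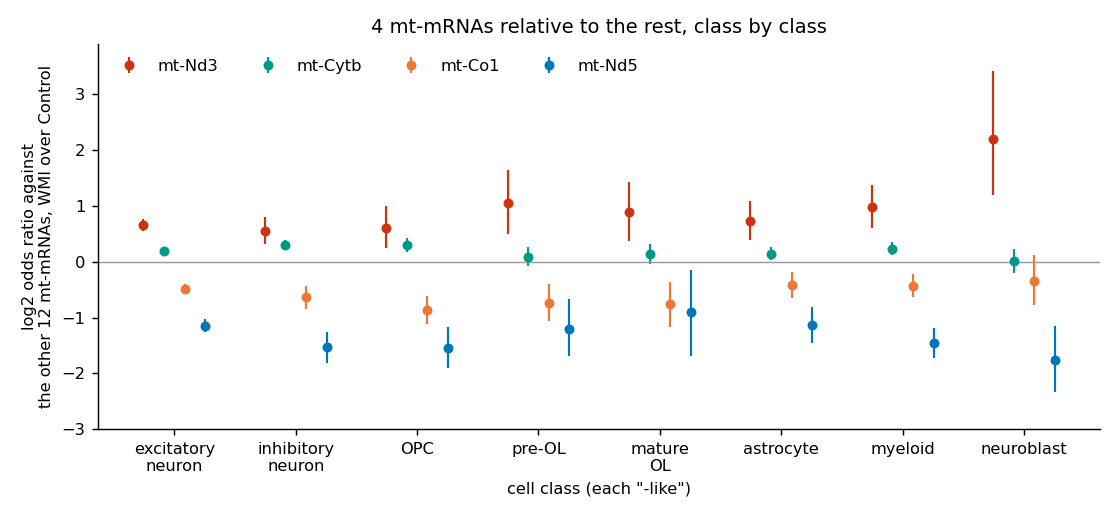
Log2 odds ratio, WMI over Control, of each of 4 mt-mRNAs against the other 12 (y axis) in the 8 classes (x axis); bars are exact 95% counting intervals and the grey line marks an unchanged share. *mt-Nd3* (red) lies at 0.56 to 2.19 and *mt-Nd5* (blue) at -1.76 to -0.90 in all 8 classes.

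In shares of mt-mRNA UMIs, *mt-Nd3* took 0.99% to 2.82% in the Control classes and 3.56% to 4.39% in the WMI classes, so the 2 sets of class values did not overlap. The lowest Control value, in neuroblast-like cells, rested on 8 UMIs. By single cluster the values did overlap, reaching 4.09% in Control and starting at 3.27% in WMI. *mt-Nd5* took 2.11% to 4.95% and 1.14% to 1.86% in the classes, again without overlap. The sparse *mt-Atp6* took 0.309% to 0.527% and 0.183% to 0.304%, class values that barely missed each other. The lowest Control value, in inhibitory neuron-like cells, rested on 20 UMIs (0.189 to 0.477). The highest WMI value, in astrocyte-like cells, rested on 31 UMIs (0.206 to 0.431), so these intervals overlapped. The log2 odds ratio of *mt-Atp6* had an interval below 0 in only 1 of 8 classes. *mt-Cytb* took 32.1% to 37.4% and 35.3% to 39.7%, which overlapped, as did the shares of the remaining mt-mRNAs. The whole composition differed between the libraries by 5.11% to 7.38% of mt-mRNA UMIs within a class (the share that would have to move from one gene to another to make both equal), with a median of 6.52%. Pairs of classes within Control differed by 1.602% to 9.934% (median 5.35%) and within WMI by 0.93% to 7.45% (median 4.15%), so the median between libraries was above both medians within a library, while the ranges overlapped.

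The share of *mt-Nd3* was then read in cells binned by how much of their UMIs came from the other 12 mt-mRNAs. In Control cells with up to 0.05% there were 2.99 *mt-Nd3* UMIs per 100 of the others (2.56 to 3.46), and in Control cells above 2% there were 3.10 (2.75 to 3.49). The 7 Control bins ran from 2.21 to 3.10, without an order. In WMI the same 2 bins had 5.60 (4.496 to 6.890) and 4.36 (4.199 to 4.533), and the 7 bins ran from 4.25 to 5.60. At each level of the other mt-mRNAs the WMI value was therefore above the Control value, with intervals apart. *mt-Nd5* took 3.14% to 4.27% of mt-mRNA UMIs in the Control bins and 1.45% to 1.80% in the WMI bins. These bins pooled all classes, so cells were matched for mitochondrial level but not for class. Within excitatory neuron-like cells without cluster 2, OPC-like and myeloid-like cells, WMI was above Control in each bin with values in both libraries. Some of these intervals overlapped. OPC-like cells at 0.25% to 0.5% had 2.94 (1.70 to 4.74) in Control and 3.65 (2.80 to 4.67) in WMI. In myeloid-like cells the intervals lay apart only at 0.1% to 0.25% and at 0.25% to 0.5%. Excitatory neuron-like cells without cluster 2 overlapped only at up to 0.05%, with 3.13 (2.59 to 3.76) and 4.12 (2.80 to 5.86).

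**Figure D4:**
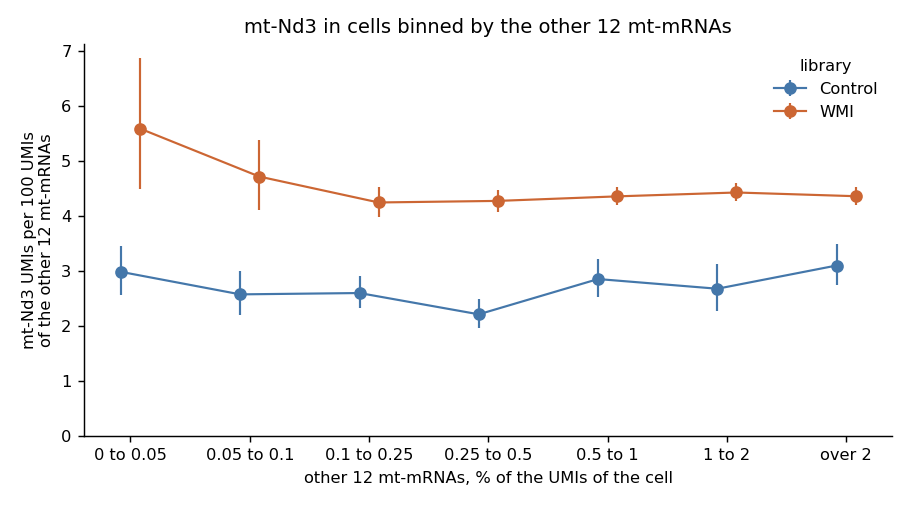
UMIs of *mt-Nd3* per 100 UMIs of the other 12 mt-mRNAs (y axis, from 0) in kept cells binned by the percent of their UMIs from those 12 genes (x axis), with 95% counting intervals. The Control bins (blue) lie between 2.21 and 3.10 and the WMI bins (orange) between 4.25 and 5.60.

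Of the clusters, 25 had at least 20 cells in each library. The mitochondrial share was higher in WMI in 25 of 25, and at least 2-fold in 22. The share of *mt-Nd3* in mt-mRNA UMIs was higher in 24 of 25, with intervals apart in 13, and that of *mt-Nd5* was lower in 25 of 25. The exception for *mt-Nd3* was excitatory neuron-like cluster 21, with 4.09% in Control (2.19 to 6.89, over 318 mt-mRNA UMIs) and 3.27% in WMI (2.63 to 4.00). The lowest ratio of mitochondrial share was in excitatory neuron-like cluster 15, where pooled shares of 0.328% and 0.377% gave a log2 ratio of 0.20 (0.15 to 0.26). Its median cells held 0.0568% and 0.283%, further apart than the pooled shares.

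Levels per length were set beside how much of each gene's sequence was its own. Of the 50-base stretches of *mt-Cytb*, *mt-Nd1*, *mt-Atp8*, *mt-Nd6* and *mt-Rnr1*, 100% occurred in no other annotated transcript. For *mt-Co2*, *mt-Co3*, *mt-Atp6* and *mt-Nd4l* that share was 0% to 1.21%, and these 4 had 1.50002 to 19.9 CPM per kb in WMI, against 1675 CPM per kb for *mt-Cytb*. Low levels were not limited to them, since *mt-Nd6* had 16.99 CPM per kb. *mt-Nd3* was unlike these 4, with 86.2 CPM per kb in Control and 634 in WMI although only 2.01% of its 50-base stretches were its own. Which reads of *mt-Nd3* were counted, and over which of its bases, cannot be seen in gene counts, and the read length is not given in the sources used here. The 11 copies held 130 Control and 444 WMI UMIs in all, a log2 ratio of 1.87 (1.58 to 2.16), below the 2.23 of the summed mt-mRNAs. *Gm29216* had 30 and 111 UMIs, *Gm28437* (a full copy of *mt-Co3*) 25 and 110, *Gm28661* (of *mt-Co2*) 26 and 87, *Gm10925* (of *mt-Atp6*) 18 and 60, and *Gm28438* only 3 and 9. The other chromosome 1 copies, *Gm10222* (of *mt-Nd4l*) and *Gm28439* (of part of *mt-Nd4*), had 5 and 6 and 2 and 2 UMIs. On chromosome 2, *Gm13340* (of *mt-Co1*) had 12 and 36, *Gm13341* (of *mt-Co2*) 9 and 22 and *Gm13339* (of *mt-Nd2*) 0 and 1, while *Gm4076* on chromosome 13 (of *mt-Nd5*) had none. UMIs of the members and of these copies are uncertain in this respect, and the part of shared reads in the ratios was not tested.

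**Figure D5:**
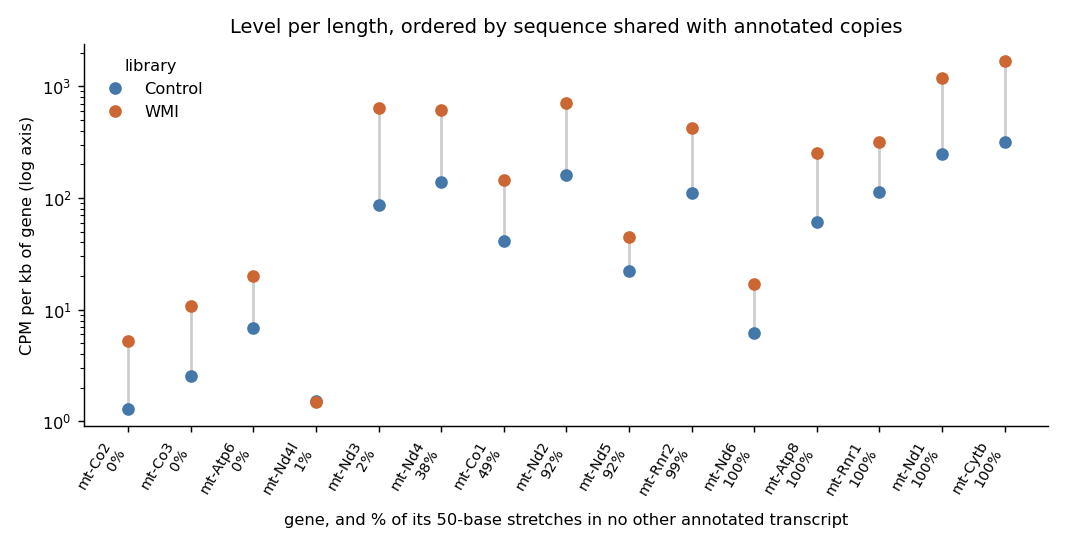
CPM per kb of gene (log axis) in the Control (blue) and WMI (orange) libraries for each mt-mRNA and mt-rRNA, ordered from left to right by the percent of its 50-base stretches found in no other annotated transcript. The 4 genes at 0% to 1.21% lie at or below 19.9 CPM per kb, while *mt-Nd3*, at 2.01%, reaches 634 in WMI.

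The nuclear subunit genes of complexes I, III, IV and V, and of complex II, which has no mitochondrially encoded subunit, had lower ratios in the median than the mt-mRNAs. Of 77 nuclear subunit genes, none was 2-fold higher or lower over all kept cells (6.87% and 2.68% of all genes), and their median log2 ratio was -0.14, beside 0.05 for all genes and 2.07 for the mt-mRNAs. In excitatory neuron-like cells without cluster 2 the median was -0.05 and 0 of 77 were 2-fold higher (2.56% of all genes). In OPC-like cells it was -0.00, with 2 of 70 higher and 1 lower (1.79% and 0.899% of all genes), counts near the background. In myeloid-like cells it was -0.14, with 0 of 76 higher and 2 lower (7.94% and 1.75% of all genes). By complex, in all excitatory neuron-like cells, the log2 ratios ran from -0.85 (*Ndufv1*) to 0.33 (*Ndufc2*) in complex I. They ran from -0.47 (*Sdhd*) to -0.13 (*Sdhb*) in complex II, from -0.94 (*Uqcr10*) to 0.01 (*Uqcrc2*) in complex III, from -0.51 (*Cox7a2l*) to 0.37 (*Cox6a1*) in complex IV and from -0.90 (*Atp5j*) to -0.02 (*Atp5l*) in complex V. Cluster 2 lowered these values, since without it the median of the 77 moved from -0.34 to -0.05. Of 26 nuclear genes that transcribe, cut or stabilise mitochondrial RNA, 0 of those with enough UMIs passed 2-fold in any of the sets compared, where 1.79% to 7.94% of all genes were higher. A count of 0 in a list of this size is near that background. Their median over all kept cells was -0.05.

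Other measures also differed between the libraries. The 90 cytoplasmic ribosomal protein genes, summed, were higher in WMI in 8 of 8 classes, with log2 ratios from 0.04 in all excitatory neuron-like cells (0.44 without cluster 2) to 0.67 in myeloid-like cells. *Malat1*, a long RNA held in the nucleus, had log2 ratios from -0.32 to 0.41 and was lower in WMI in 6 of 8 classes. In the 2 classes with the smallest mitochondrial ratios, mature OL-like and astrocyte-like cells, *Malat1* was higher in WMI, at 0.41 and 0.23. Their ribosomal protein ratios, 0.17 and 0.21, were also the lowest once cluster 2 was left out of the excitatory neuron-like cells. Elsewhere the orders differed, since OPC-like cells, with the highest mitochondrial ratio, had a ribosomal protein ratio of 0.54. The part of cytoplasmic RNA carried along with the cells or nuclei in these differences was not tested. Every class expresses the members, so none could serve as a measure of free RNA in the droplets.

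The WMI library held cells with *Xist*, expressed from the inactive X chromosome of females, and cells with Y-linked transcripts, whereas *Xist* had 5 UMIs in the kept Control cells. WMI cells with a UMI of *Xist* and none of *Ddx3y*, *Uty*, *Eif2s3y* or *Kdm5d* had a mitochondrial share of 0.706% over 2266 cells, and those with a Y-linked UMI and no *Xist* UMI 0.566% over 1968 cells. Control cells with a Y-linked UMI had 0.134%. The share of *mt-Nd3* in mt-mRNA UMIs was 4.2001% (4.06 to 4.34), 4.27% (4.12 to 4.42) and 2.65% (2.52 to 2.79), so the intervals of the 2 sets of WMI cells overlapped and both lay apart from that of Control. Within classes the WMI sets had 4.43% and 4.42% in excitatory neuron-like cells without cluster 2, 4.15% and 3.95% in OPC-like cells and 3.85% and 4.22% in myeloid-like cells, all with intervals above those of the Control cells with a Y-linked UMI. In astrocyte-like cells they had 3.38% (2.82 to 4.01) and 3.08% (2.389 to 3.8999), and the latter interval overlapped that of the Control cells, 2.22% (1.76 to 2.76).

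Over the 8 classes in both libraries (16 points, which share libraries and depth), the 5 non-member genes with levels most like *mt-Nd3* by Pearson's r of log2(CPM + 1), among 15427 genes, were *Spp1* (0.938), *Xist* (0.933), *Tsix* (0.926), *Apoc1* (0.908) and *Lyz2* (0.900). Each was nearly restricted to the WMI library, with 5 to 25 UMIs in Control. Among the members, *mt-Nd1* (0.961), *mt-Nd4* (0.9501) and *mt-Nd2* (0.949) were most like it, while *mt-Nd5* (0.592), *mt-Nd6* (0.619) and *mt-Nd4l* (-0.240) were least so among the mt-mRNAs.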

How the data were processed

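Single-cell libraries of mouse cerebral cortex (1 Control, 1 WMI) were deposited by the authors as raw UMI counts per gene and barcode, with no normalization. The submitters' processing notes name Seurat and the mm9 build, while the aligner and read length are not given in the sources used here. All 55450 gene identifiers and symbols matched GENCODE M21 (GRCm38), which gave positions and transcripts. Mitochondrial genes were taken by symbol, and members and gene lists were chosen with earlier results of these data known.

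Barcodes with at least 1000 UMIs and 500 genes were kept. Doublets were removed by their share of simulated doublets among 30 neighbours, at an expected 0.8% per 1000 barcodes. Cells were integrated and clustered with Seurat 5.3.0 in R 4.3.3 (2000 features, 30 components, resolution 0.8) and named from marker lists. Mitochondrial and ribosomal protein genes, the listed nuclear genes compared here, *Tsix* and the chromosome 1 copies were left out of the clustering. Counts were summed per class and library and expressed as CPM. Ratios carry exact conditional binomial, shares Clopper-Pearson and odds ratios exact conditional 95% intervals, for counting error only (Python 3.11.15, NumPy 2.4.6, SciPy 1.17.1, pandas 2.3.3, scikit-learn 1.9.0). UMIs per library were 66470806 (Control) and 60568639 (WMI). Counts of 2-fold differences took genes that reached 50 UMIs in the libraries together. The computations were tested on simulated data.

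All mt-mRNAs and mt-rRNAs are named, as are mt-tRNAs with at least 100 UMIs, the lowest and highest nuclear subunit gene of each complex in excitatory neuron-like cells, and the 5 genes most like *mt-Nd3*. *mt-Tm* and clusters 15 and 21 were named after their values were seen. Nuclear copies were searched with BLAST+ 2.17.0 (word size 15, at least 95% identity over 200 bases) among annotated transcripts, in place of the nuclear genome, which was not used here. Striatal and fibroblast-like clusters and unnamed clusters were not compared as classes. Free RNA was not estimated. Alternatives changed the cell filters, doublets, denominator, weighting of cells, clusters, depth and folds.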

Additional observations from a re-analysis of the deposited data

Results flagged for a closer look

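Barcodes outside the compared cells also carried mitochondrial UMIs above the Control level. WMI barcodes with under 1000 UMIs or 500 genes had a mitochondrial share of 0.885%, against 0.284% for such Control barcodes, and *mt-Nd3* made up 4.44% of their mt-mRNA UMIs (3.29 to 5.84), against 2.25% (1.53 to 3.17). WMI barcodes predicted to be doublets had a share of 0.650%, against 0.224%, with *mt-Nd3* at 4.39% (4.18 to 4.61) against 2.99% (2.72 to 3.28). The unnamed cluster 3 had a mitochondrial share of 1.92% in WMI (1137 cells) and 0.0364% over 10 Control cells. The striatal projection neuron-like cluster went the other way, with 0.590% over 145 WMI cells and 1.34% over 5 Control cells. No explanation of these values was tested.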

How the results depend on the processing

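No paired analysis was possible because each group holds 1 library, so no replicate could be left out either. Alternatives were run for all 37 genes, summed mt-mRNAs, mt-rRNAs and mt-tRNAs, and *mt-Nd3* alone and against the other 12. Over all kept cells none of these turned direction, but many moved beyond counting error. Leaving out barcodes over 10% mitochondrial UMIs gave 2.17 for all 37 genes and 1.82 for mt-rRNAs (2.15 and 1.78 as reported). Keeping every deposited barcode gave 2.04 for all 37, 2.12 for mt-mRNAs, 2.75 for *mt-Nd3* and 1.68 for mt-rRNAs, and keeping doublets 2.05, 2.13, 2.76 and 1.68. Leaving out barcodes under 2000 UMIs gave 2.12 for all 37 and 1.67 for mt-rRNAs. The mean over cells gave 2.31, 2.33, 3.04 and 2.23, leaving out the top 1% of barcodes by mitochondrial share 2.39, 2.45, 3.14 and 2.11, and thinning each cell to 1000 UMIs 2.31, 2.34, 3.11 and 2.19, with 2.08 for mt-tRNAs. Without clusters of 1 library the values were 2.08 for all 37, 2.21 for mt-mRNAs and 1.42 for mt-rRNAs, and without barcodes holding an *Xist* UMI 2.22, 2.29 and 1.94. The log2 odds ratio of *mt-Nd3* (0.67) was 0.79 after thinning and 0.54 against mt-mRNAs without shared 50-base stretches, the latter chosen after seeing the data. As a mean over only those cells with at least 5 mt-mRNA UMIs, *mt-Nd3* took 2.53% of mt-mRNA UMIs in Control and 3.98% in WMI. Among the classes, directions turned only in mature OL-like cells. There the log2 odds ratio of *mt-Nd3* was -0.077 after thinning (0.89 as reported). The log2 ratio of mt-rRNAs was -0.0397 without *Xist* barcodes (0.19 as reported). Many class values moved beyond their counting interval without turning, in 42 of 96 alternatives for all 37 genes, 36 of 96 for mt-mRNAs and 30 of 96 for mt-rRNAs. For *mt-Nd3* 8 of 95 did. In mature OL-like cells the log2 ratio of all 37 genes (0.74) was 0.32 without *Xist* barcodes and 1.14 with doublets kept. The causes were not tested. Leaving out the 27 shared barcodes among kept cells, also chosen after seeing the data, gave 2.15 for all 37, and leaving out cluster 0 gave 2.19. Depth limits *mt-Nd4l*, *mt-Co2* and the mt-tRNAs by class, and mature OL-like and neuroblast-like Control cells.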
